A study of Mus musculus with 6 samples.

Results

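The suppressors of cytokine signalling were followed in Th17 cells that carry the RORγt N275D substitution. The group consists of *Socs1* to *Socs7* and *Cish*, taken by gene symbol from the table of normalized reads, and all 8 symbols were found among its 16244 genes. Naive CD4+ T cells from spleens of WT mice or of RORγt N275D knockin mice were cultured for 3 days on anti-CD3 and anti-CD28 under pathogenic Th17 conditions. Each genotype was represented by 3 RNA-seq libraries. The series' design text gives IL-6, IL-1β and IL-23 as the cytokines. The methods of the study list TGF-β and blocking antibodies against IL-4 and IFN-γ among the additions as well, so that secreted IFN-γ may have been neutralized in both genotypes. WT mice were purchased C57BL/6 animals (C57BL/6NJ in the resources table), and the CRISPR-Cas9 knockin line had its own origin, with C57BL/6 as its background strain. Mice were 6 to 12 weeks old unless stated otherwise. Whether the RNA-seq donors were homozygous, and whether replicates were separate mice or separate cultures, is not given in the sources used here, so p-values measure the spread between these libraries only.

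SOCS proteins are the feedback brakes of the JAK-STAT pathway. A cytokine receptor activates Janus kinases, these phosphorylate STAT factors, and the STATs switch on SOCS genes whose products then bind the receptor or the kinase through an SH2 domain. The SOCS box at the end of each protein recruits elongins and a cullin ubiquitin ligase, which marks bound proteins for degradation. SOCS1 and SOCS3 also carry a short region that blocks the kinase directly. In Th17 cells, SOCS3 is known for restraining the STAT3 signal that IL-6 and IL-23 send, whereas CIS, the product of *Cish*, and SOCS2 are known as products of STAT5 signalling downstream of IL-2.

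The libraries held 17659035 to 18510878 inferred reads on genes, and WT replicate 3 lay apart from the other 2 WT libraries (the median chi-square over genes was 2.96 and 3.05 times that of counting noise, against 1.32 to 1.54 for the other pairs within a genotype). *Cd3e*, *Cd4*, *Il17a* and *Il17f* were read in every library labelled Th17 cell, with 27166.4 to 32673.3 normalized reads for *Il17a*. The substitution itself cannot be seen in reads per gene. All 8 B cell markers were listed, and their sum lay between 1139.5 and 1177.7 normalized reads in WT and between 1742.1 and 1807.9 in mutant libraries, most of it from *Ebf1*. *Ms4a1* did not exceed 10 in any library. Of 8 myeloid markers, *Lyz2*, *Csf1r*, *Fcgr1* and *Itgax* did not exceed 10, and the sum ranged from 94.9 to 114.0 in WT and from 109.6 to 135.8 in mutant libraries. The 6 CD8 T and natural killer cell markers listed summed to 252.4 to 284.5 and 368.4 to 418.3, with *Klrb1c* not above 10, and the 2 gamma delta T cell markers listed summed to 31.3 to 41.3 and 58.3 to 65.9. The part of such cells in the levels of *Socs1*, *Socs2*, *Socs3* and *Cish*, which other lymphocytes express too, was not tested.

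Of the 8 members, *Socs3*, *Socs2*, *Socs1* and *Cish* were higher in the mutant cells, *Socs7* was lower, and *Socs4*, *Socs5* and *Socs6* did not pass the test. *Socs3* changed most, by 1.95-fold between the genotype means. Values were compared with limma on log2(normalized reads + 1) over the 11908 genes whose mean reached 10, all 8 members among them, with p-values adjusted over all of these genes by Benjamini-Hochberg and calls made at an adjusted p under 0.05. The background of this comparison is large: 24.7% of all genes tested were called higher and 26.1% lower in the mutant, against 4 and 1 of the 8 members. In either direction this made 50.9% of the genes tested and 5 of the 8 members. All mutant libraries lay above all WT libraries for 4 members, where 28.1% of the genes tested did so, and below them for 1 member, where 29.6% did, which is 5 of 8 members against 57.7% in all. At 2-fold or more, limma called 3.59% of the genes tested (2.73% higher) and 0 of the members. An unadjusted p under 0.05 by limma was found for 5 of the 8 members and for 6715 of the 11908 genes tested. The median log2 fold change of the 8 members was 0.16, beside -0.003 over all genes tested. In bulk RNA, a transcript level per cell and the share of cells that make the transcript cannot be told apart.

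**Figure D1:**
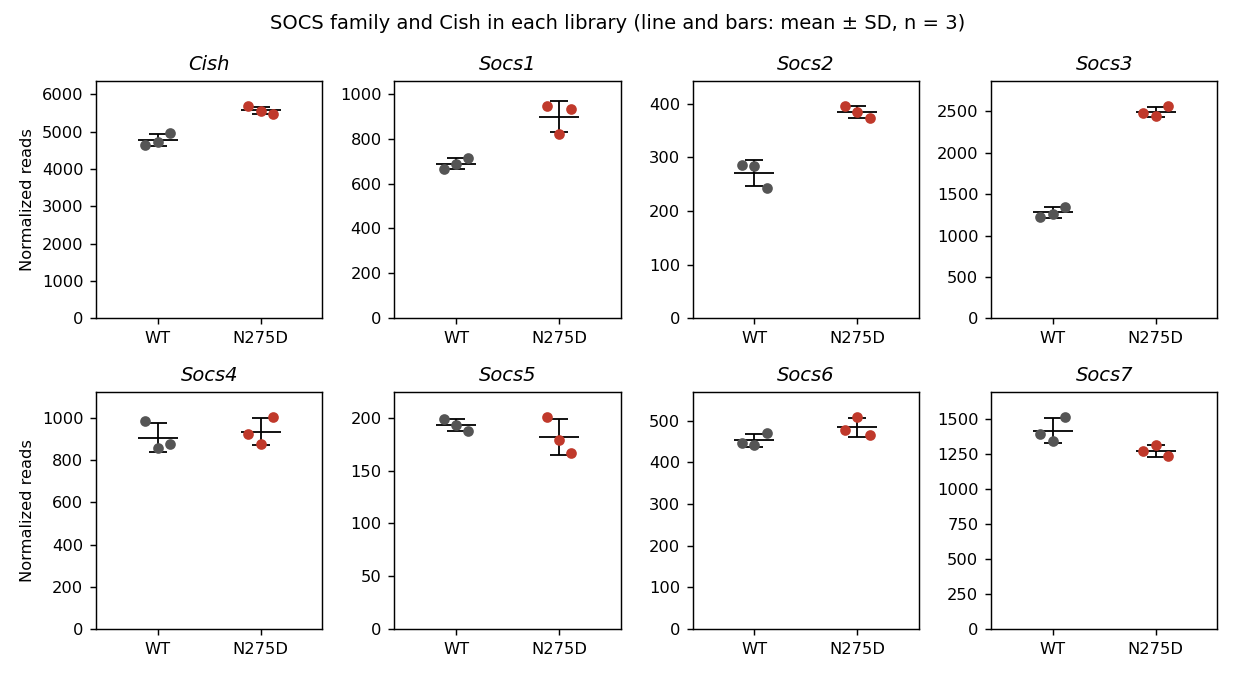
Normalized reads (linear axis from 0) of each of the 8 genes in the 3 WT (grey) and 3 RORγt N275D (red) libraries, with the mean and SD of each genotype. The genotypes do not overlap for *Cish*, *Socs1*, *Socs2*, *Socs3* and *Socs7*, and they overlap for *Socs4*, *Socs5* and *Socs6*.

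*Socs3* (gene ID 12702, GRCm38 chromosome 11, 117966079 to 117970336, minus strand) encodes the inhibitor that docks on gp130, the shared signalling chain of IL-6 family receptors. It had 1225.3, 1265.0 and 1348.6 normalized reads in the WT libraries and 2476.8, 2445.8 and 2560.8 in the RORγt N275D libraries. The lowest mutant library thus lay far above the highest WT library. The means were 1280 ± 63.0 and 2494 ± 59.5 (SD, n = 3 each), which differed by 0.96 ± 0.05 (SE) on the log2 scale with an adjusted p of 8.67e-11 in limma. Its 95% interval ran from 0.87 to 1.06 and so included 2-fold. The estimate reached 1.00 without WT replicate 3 and 1.01 under quantile normalization. *Socs3* held rank 354 of the 11908 genes tested by log2 fold change, above 97.0% of them.

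*Socs1* (gene ID 12703, chromosome 16, 10783808 to 10785536, minus strand) encodes the other member with a kinase inhibitory region, known for limiting IFN-γ and IL-2 signals. Its values were 663.1, 689.0 and 714.1 normalized reads in WT and 943.4, 819.6 and 931.3 in mutant libraries. RORγt N275D replicate 2 was the lowest of the mutant libraries, yet it stayed above every WT library. *Socs1* rose by 0.38 ± 0.06 (SE) on the log2 scale (adjusted p = 7.73e-05 from limma), from a mean of 689 ± 25.5 to 898 ± 68.2 (SD, n = 3 each).

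Stretches before an annotated start of *Socs3* and *Socs1* are printed here because these inhibitors are classical STAT and interferon targets and both were higher in the mutant. They are the 250 bases before the start that the RefSeq promoter table of GRCm38.p6 takes for each gene, read 5′ to 3′ on the minus strand, at chr11:117969367-117969616 for *Socs3* and chr16:10785537-10785786 for *Socs1*. Capitals mark matches to the motifs searched.
Socs3: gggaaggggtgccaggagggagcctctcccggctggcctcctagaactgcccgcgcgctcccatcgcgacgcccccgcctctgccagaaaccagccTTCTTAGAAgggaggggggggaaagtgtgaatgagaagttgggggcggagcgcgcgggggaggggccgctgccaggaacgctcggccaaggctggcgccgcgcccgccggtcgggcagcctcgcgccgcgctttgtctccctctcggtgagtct
Socs1: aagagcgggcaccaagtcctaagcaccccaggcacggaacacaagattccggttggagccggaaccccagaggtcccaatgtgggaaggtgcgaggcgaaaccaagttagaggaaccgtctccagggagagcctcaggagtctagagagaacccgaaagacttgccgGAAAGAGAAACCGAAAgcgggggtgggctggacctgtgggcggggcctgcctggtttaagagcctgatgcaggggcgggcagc

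Motifs were searched on both strands in the 250 bases before each of 32851 transcript starts. The STAT letters TTCNNNGAA occurred once before *Socs3*, from base 154 to base 146 before the start, and in 7.0% of all starts. The core of an interferon-response element, GAAA followed after any 2 bases by GAAA, was added to the search once the sequence had been read. It occurred at 2 overlapping places before *Socs1*, from base 83 to 74 and from base 77 to 68, and in 3.0% of all starts. Entries for 4 members were in the RefSeq table, the other 2 being *Cish* and *Socs4*. The HIF core ACGTG, present before 16.6% of starts, occurred at 2 places in the *Cish* window, bases 99 to 95 and 47 to 43. Its sister form GCGTG, present before 28.2%, occurred once before *Socs4*, which was not called. The wider STAT form with 4 free bases between TTC and GAA (5.9% of starts) and the ROR core AGGTCA (14.0%) were in none of the 4 windows. The *Socs3* window lies inside the RefSeq span of its own gene, whose 5′ end is at 117970336, whereas the *Socs1* window adjoins the end of its gene. In the GENCODE annotation the coding transcript of *Socs3* begins closer to the coding sequence than the start used here, so the bases next to that start are not in the window shown. These matches describe letters and not binding.

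*Cish* (gene ID 12700, chromosome 9, 107296659 to 107302784, plus strand) encodes CIS, which binds phosphorylated chains of receptors such as that for IL-2. It was the most abundant member, with 4636.8, 4730.0 and 4971.2 normalized reads in WT and 5677.3, 5548.7 and 5483.0 in mutant libraries. Every mutant library exceeded every WT library, by a margin that was small beside the level of the gene. The means were 4779 ± 173 and 5570 ± 98.8 (SD, n = 3 each), an increase of 0.22 ± 0.04 (SE) on the log2 scale (limma, adjusted p = 1.40e-04). In the GENCODE annotation *Cish* is overlapped on the other strand by the antisense gene *Gm17041* and the pseudogene *Gm17040*. Whether the counting used the strand is not given in the sources used here, so reads of these genes could be included in the value of *Cish*.

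*Socs2* (gene ID 216233, chromosome 10, 95383903 to 95417321, minus strand) encodes a STAT5-induced inhibitor best known for restraining growth hormone receptor signalling. Its WT libraries had 285.6, 283.5 and 243.6 normalized reads and its mutant libraries 395.3, 385.2 and 374.3. WT replicate 3 was the lowest of all, and the mutant libraries were again above each WT library. *Socs2* rose by 0.51 ± 0.08 (SE) on the log2 scale, with an adjusted p of 4.10e-05 in limma, from 271 ± 23.7 to 385 ± 10.5 normalized reads (SD, n = 3 each). Both STAT5-linked members thus rose, *Cish* by 1.17-fold and *Socs2* by 1.42-fold between the means.

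*Socs7* (gene ID 192157, chromosome 11, 97362292 to 97398542, plus strand) encodes an inhibitor linked to insulin receptor substrates and prolactin signalling. It was the only member called lower, with 1393.9, 1345.7 and 1513.7 normalized reads in WT and 1269.8, 1315.2 and 1233.5 in mutant libraries. The gap between the closest libraries of the genotypes was narrow, 1345.7 against 1315.2. The difference of *Socs7* was -0.15 ± 0.05 (SE) on the log2 scale, or 0.90-fold, with an adjusted p of 0.0192 in limma. This call was lost under quantile normalization (adjusted p = 0.0504), in eBayes without a trend (0.0730), without RORγt N275D replicate 1 (0.0580) and without RORγt N275D replicate 3 (0.0886), all by limma.

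The remaining members were not called. *Socs4* (gene ID 67296, chromosome 14, 47276920 to 47296102) and *Socs5* (gene ID 56468, chromosome 17, 87107278 to 87137647) encode the members linked to epidermal growth factor receptor turnover, and *Socs6* (gene ID 54607, chromosome 18) encodes one that binds the KIT receptor. *Socs4* had 984.1, 857.4 and 877.2 normalized reads in WT and 925.4, 877.8 and 1004.4 in mutant libraries, with a log2 difference of 0.05 whose 95% interval ran from -0.09 to 0.18. For *Socs5* the values were 198.8, 193.7 and 187.6 in WT and 200.7, 178.6 and 166.9 in mutant libraries, with a log2 difference of -0.09 and an interval from -0.28 to 0.10. *Socs6* had 446.1, 442.8 and 471.5 normalized reads in WT and 478.2, 508.6 and 465.1 in mutant libraries, a log2 difference of 0.09 with an interval from -0.04 to 0.23. The genotypes overlapped for these 3 genes, and their adjusted p-values from limma were 0.557, 0.423 and 0.225. *Socs5* was the lowest of the 8, and its log2 difference came to -0.16 without RORγt N275D replicate 1, to -0.03 without RORγt N275D replicate 3 and to -0.19 under quantile normalization, none of them called. GENCODE places 2 processed pseudogenes on the strand of *Socs6* within its span and 1 on the other.

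**Figure D2:**
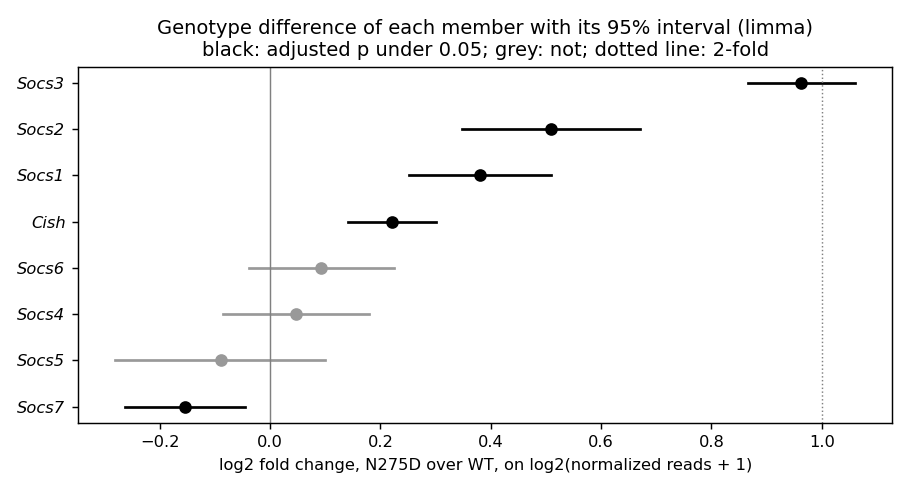
Log2 fold change of each member, RORγt N275D over WT, on log2(normalized reads + 1), with its 95% interval from limma (black where the adjusted p is under 0.05, grey where it is not). *Socs3* at 0.96 stands apart from *Socs2* at 0.51, *Socs1* at 0.38 and *Cish* at 0.22, and its interval crosses the dotted 2-fold line.

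Levels were compared between members per length, as normalized reads per kb of the union of protein-coding exons in GENCODE. The annotation used for counting is not given in the sources used here, so these are approximate levels. For *Socs1* the union, 2908 bases, is longer than the RefSeq span given above for the gene. The level of *Socs1* per kb, and its share below, therefore depend on the annotation. In WT libraries the order was *Cish* (1310 ± 47.3), *Socs3* (501 ± 24.7), *Socs1* (237 ± 8.77), *Socs7* (202 ± 12.3), *Socs4* (132 ± 9.91), *Socs2* (99.1 ± 8.66), *Socs6* (72.7 ± 2.51) and *Socs5* (41.6 ± 1.21; normalized reads per kb, SD, n = 3). No neighbours in that order overlapped between libraries. In mutant libraries *Cish* (1527 ± 27.1), *Socs3* (977 ± 23.3) and *Socs1* (309 ± 23.5) stayed at the top, and *Socs2* (141 ± 3.85) moved beside *Socs4* (136 ± 9.29), whose libraries it overlapped.

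The summed level of the 8 genes per kb lay between 2540.2 and 2685.6 in WT and between 3337.8 and 3431.8 in mutant libraries. *Cish* made up 50.0% to 50.8% of that sum in WT and 44.3% to 45.6% in mutant libraries, whereas *Socs3* made up 18.9% to 19.7% and 28.3% to 29.5%. The share of *Socs1* was the same on average, 9.12% ± 0.14 in WT and 9.11% ± 0.58 in mutant libraries (SD, n = 3 each). *Socs7*, *Socs4*, *Socs6* and *Socs5* each held a smaller share in every mutant library than in any WT library. Shares sum to the whole, so a larger share of one gene lowers the others.

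**Figure D3:**
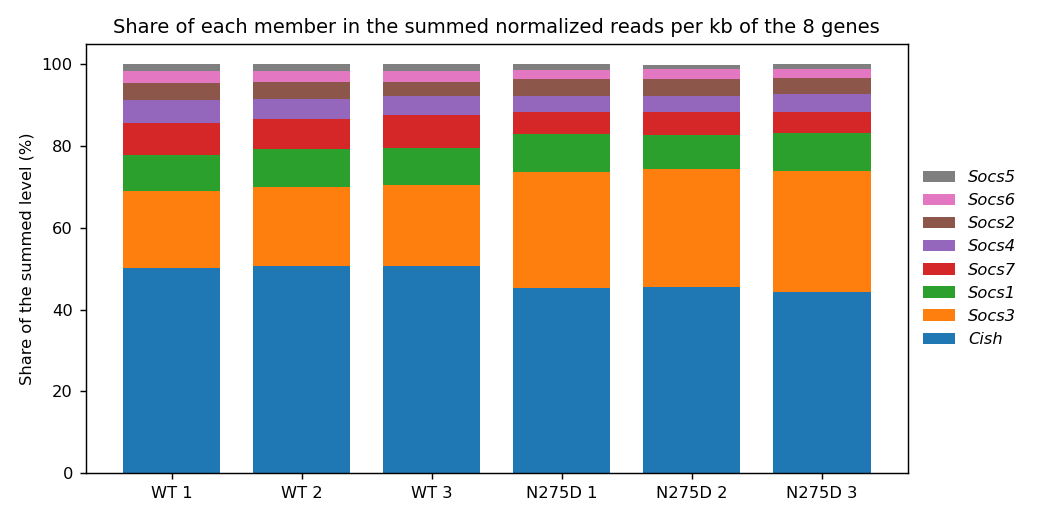
Share (%) of each of the 8 genes in their summed normalized reads per kb, 1 bar for each library. The *Socs3* share is 18.9% to 19.7% in the 3 WT bars and 28.3% to 29.5% in the 3 RORγt N275D bars, and the *Cish* share is lower in the mutant bars.

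Differences within a library do not depend on the factor that scales it. On the log2 scale *Cish* exceeded *Socs3* by 1.92, 1.90 and 1.88 in WT and by 1.20, 1.18 and 1.10 in mutant libraries, so that the gap changed by -0.74, from 1.90 ± 0.019 to 1.16 ± 0.053 (SD, n = 3 each). For *Socs1* minus *Socs3* the log2 difference was -0.88, -0.88 and -0.92 in WT and -1.39, -1.58 and -1.46 in mutant libraries. *Cish* exceeded *Socs2* by 4.02, 4.06 and 4.35 in WT and by 3.84, 3.84 and 3.87 in mutant libraries, a change of -0.29 that came to -0.18 without WT replicate 3 and to -0.14 under quantile normalization. The genotypes overlapped in none of these 3 differences. The two-sided exact permutation p was 0.1 for each, also after Benjamini-Hochberg adjustment over the 3, and 0.1 is the smallest value that 3 libraries against 3 allow.

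Among the genes tested, those whose profile lay nearest to *Socs3* were *Slc2a3*, *Rnf157* and *Trib3*, by the Euclidean distance between log2 values centred on the mean of each gene over the 6 libraries. The distances were 0.048, 0.065 and 0.073 on the log2 scale. *Slc2a3*, the gene of a glucose transporter, went from 1488 ± 56.3 to 2915 ± 37.2 normalized reads, *Rnf157* from 662 ± 53.3 to 1278 ± 34.3 and *Trib3* from 631 ± 41.0 to 1193 ± 19.8 (SD, n = 3 each). Such profiles are set mostly by the genotype difference.

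Transcripts of ligands, receptors, kinases and target genes of the signals that switch the members on were read from lists. These are transcript levels and not the signals the cells received, and IL-6, IL-1β and IL-23 were added to the cultures. The counts called in each list stand beside 24.7% higher and 26.1% lower over all genes tested. *Il2*, whose product drives STAT5, had 10101.3, 10626.0 and 10355.0 normalized reads in WT and 2104.4, 2222.1 and 2099.6 in mutant libraries. It differed by -2.27 ± 0.04 (SE) on the log2 scale (limma, adjusted p = 3.32e-16), in the direction opposite to *Cish* and *Socs2*. The receptor chains *Il2ra* (log2 fold change 0.30) and *Il2rb* (0.29) were called higher and the shared chain *Il2rg* (-0.22) lower. Of the 18 ligand genes tested, 9 were called higher and 6 lower, with *Il23a* (0.99), *Ifng* (0.81) and *Il10* (0.71) the largest increases. These 3 were at low levels, with WT means of 35.6, 87.6 and 46.3 normalized reads. *Csf2* (-0.64) was also lower, and *Il27* (-0.85) was also called, although its genotypes overlapped and its call was lost without WT replicate 1 or 3 or RORγt N275D replicate 1 or 3 (adjusted p of 0.0567, 0.163, 0.0663 and 0.112 from limma).

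Of 29 receptor chain genes tested, 19 were called higher and 6 lower, with a list median of 0.30. *Csf2rb* (1.58), *Il7r* (1.34) and *Il12rb2* (1.26) rose most, and *Il27ra* (-0.42) and *Il6ra* (-0.36), the IL-6 binding chain, were among the lower. *Csf2rb* was near the filter, at 11.35 ± 3.30 and 35.22 ± 3.13 normalized reads (SD, n = 3 each), and came to 1.09 with a pseudocount of 10. *Il7r* went from a mean of 592 to 1502 and *Il12rb2* from 1162 to 2790. *Osmr* (-0.66), at fewer than 50 normalized reads on average, lost its call without WT replicate 2 or RORγt N275D replicate 1. *Il6st*, which encodes gp130, the docking chain of SOCS3, had 364.4, 377.3 and 371.3 normalized reads in WT and 418.3, 447.4 and 431.6 in mutant libraries. *Il6st* rose by 0.22 ± 0.06 (SE) on the log2 scale (limma, adjusted p = 0.00774). The partner chain for IL-23, *Il23r*, had a log2 fold change of 0.70.

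Of the 11 Janus kinase and STAT genes, 5 were called higher and 3 lower. *Stat3*, the factor that SOCS3 restrains, had 9294.8, 9357.0 and 9324.6 normalized reads in WT and 10740.7, 10831.6 and 11101.3 in mutant libraries, an increase of 0.22 ± 0.03 (SE) on the log2 scale (limma, adjusted p = 2.85e-05). *Stat4* (0.84), *Stat2* (0.44) and *Tyk2* (0.19) were also higher. *Jak2* (-0.40) and *Stat5a* (-0.22) were among the lower. *Stat5b* (0.10) was called higher (adjusted p = 0.0212 from limma), a call lost in the fit with the replicate block (0.0561), in eBayes without a trend (0.0742) and without any of WT replicates 1 and 2 and RORγt N275D replicates 1 and 2 (from 0.0578 to 0.105). *Jak1* (0.04) and *Jak3* (-0.03) were not called, although *Jak1* was called higher under quantile normalization (0.14, adjusted p = 0.0113 from limma).

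Genes that respond to the same STATs moved in both directions. Of 16 genes induced by IL-2 and STAT5, 11 were called higher and 3 lower, with a median log2 fold change of 0.28. *Tnfrsf9* (1.93), *Prf1* (1.01) and *Tnfrsf18* (0.40) rose most, whereas *Bcl2l1* (-0.40), *Lta* (-0.38) and *Ccnd3* (-0.25) fell. Of 15 genes induced by STAT3, 8 were called higher and 6 lower (median 0.23), with *Hif1a* (0.78) at one end and *Fos* (-0.60), *Il21* (-0.60) and *Junb* (-0.55) at the other. Of 25 genes induced by interferon, 12 were called higher, with a median log2 fold change of 0.16. *Ifit1* rose from 33.6 ± 3.84 to 151 ± 10.1 normalized reads and *Isg15* from 50.0 ± 5.56 to 127 ± 13.0 (SD, n = 3 each), both at low levels, and the log2 fold change of *Ifit3* was 1.71.

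The other brakes on the pathway and the partners of the SOCS box were also followed. Of 14 other inhibitors, 3 were called higher and 4 lower, near the 24.7% and 26.1% of all genes tested. *Cblb*, a ubiquitin ligase that restrains T cell activation, had 840.8, 847.3 and 906.6 normalized reads in WT and 1828.9, 1813.8 and 1927.7 in mutant libraries, an increase of 1.10 ± 0.05 (SE) on the log2 scale (limma, adjusted p = 3.25e-11). *Ptpn2* (0.29), a phosphatase of Janus kinases and STATs, was higher, and the adaptor *Sh2b3* (-0.39) and the phosphatases *Ptpn11* (-0.28) and *Ptpn6* (-0.26) were lower. *Usp18* (1.07), at 9.03 ± 3.71 and 19.3 ± 2.99 normalized reads (SD, n = 3 each), lost its call without RORγt N275D replicate 1 (adjusted p = 0.0535 from limma). Among 10 genes listed for the elongin-cullin ligase and the proteins that act with it, 1 was called higher (*Arih2*, 0.20). The 3 called lower were *Ube2m*, *Nedd8* and *Ube2f* (from -0.20 to -0.17), and the list median was -0.01. *Ube2m* lost its call without RORγt N275D replicate 3, and *Ube2f* without WT replicate 2 or without RORγt N275D replicate 2 or 3. The *Ube2m* call was also lost under quantile normalization (adjusted p = 0.179 from limma), in eBayes without a trend (0.175) and with all genes with a mean above 0 (0.0741). Of 13 other SOCS box proteins tested, 3 were called higher (*Asb7*, *Spsb3* and *Asb6*, at 0.33, 0.19 and 0.18) and 0 lower. An unadjusted p under 0.05 by limma was found for 4 of them and for 6715 of the 11908 genes tested.

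**Figure D4:**
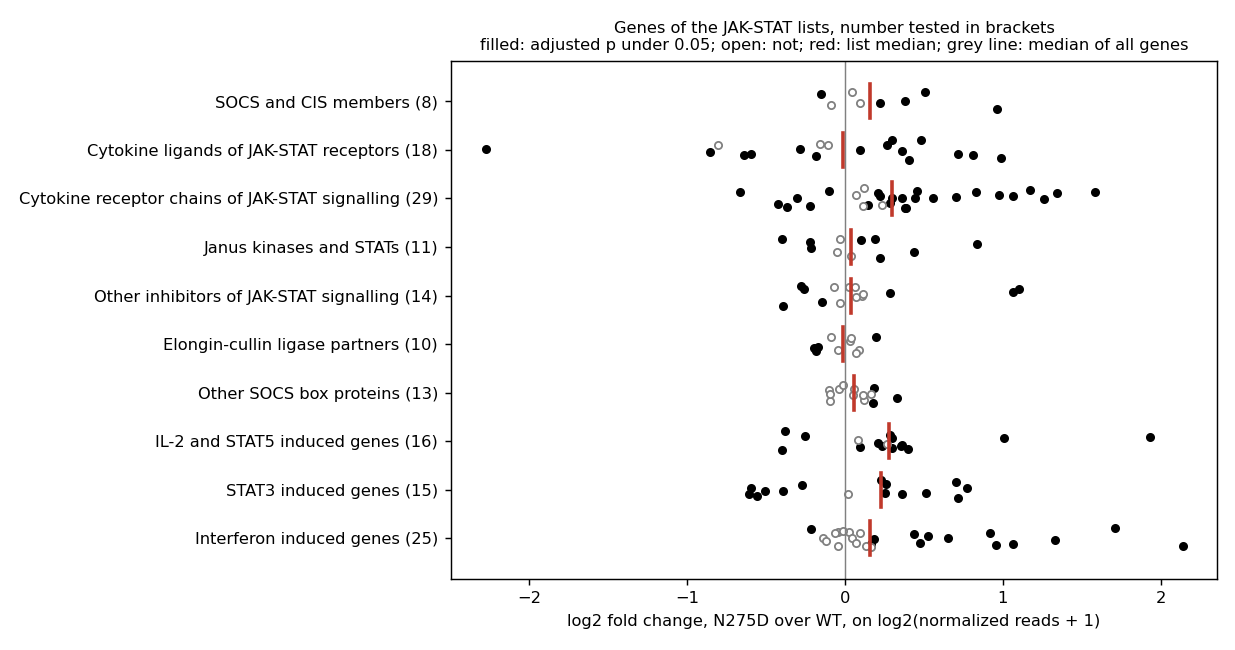
Log2 fold change, RORγt N275D over WT, of each tested gene in the 8 members and 9 JAK-STAT lists, with filled points for an adjusted p under 0.05, open points for the rest, a red bar at each list median and a grey line at the median of all genes tested. The receptor chain list has a median of 0.30, the members of 0.16 and the ligase partners of -0.01, and *Il2* is the point at -2.27.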

How the data were processed

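Th17 cells of both genotypes were profiled by RNA-seq, and libraries were grouped and numbered by their names in the labels. Per the methods, the authors removed adapters and poor bases before alignment by STAR (mm10), assigned reads to genes by featureCounts and ran DESeq2. The deposited signal values appear to be read numbers scaled by a constant for each library. Within a tolerance of 1e-06, 100% of values were whole multiples of that constant, and depth was inferred from these multiples. The constants lay close to 1 (0.982 to 1.01), so that whole reads could not be established for every library, and no count model was run. The number of sample columns left unused was 0. Columns with the authors' log2 fold changes, q-values and group averages were not used.

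Genotypes were compared with limma (version 3.58.1, R 4.3.3) on log2(normalized reads + 1) with a trended prior and no block, keeping genes whose mean reached 10. Fold changes of low genes are understated on this scale. The script was tested on simulated data. Members and lists were chosen with earlier results of these data known. All members are named, as are the pathway genes that induce or bind them, up to 3 called increases and 3 called decreases of each list, and the 3 genes nearest to the member that changed most. Alternatives were other pseudocounts, filters and scalings, eBayes without a trend, the replicate number as a block, and each library left out in turn. Coordinates and promoter bases are from RefSeq tables of GRCm38.p6, which is mm10, where all 8 members matched by gene number. Exons are from GENCODE vM21. Values of some pathway and marker genes are not reported here.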

Additional observations from a re-analysis of the deposited data

How the results depend on the processing

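*Socs3*, *Socs2*, *Socs1* and *Cish* kept their direction and their call under all 14 alternatives run. Their log2 fold changes ranged from 0.93 to 1.01, from 0.43 to 0.55, from 0.34 to 0.45 and from 0.20 to 0.32. *Socs7* lost its call under quantile normalization (-0.13) and in eBayes without a trend (-0.15), so that 0 members were called lower there, and likewise without RORγt N275D replicate 1 or 3. Over the fits without 1 library its log2 fold change ranged from -0.19 to -0.11 and the count of members called lower from 0 to 1. *Socs4* was not called in any fit, and its log2 difference ranged from -0.005, without RORγt N275D replicate 3, to 0.11. *Socs5* and *Socs6* were not called either, at -0.19 to -0.03 and 0.06 to 0.12. Under quantile normalization *Jak3*, not called, turned from -0.03 to 0.068, and *Jak1* gained a call (0.14). The count of genes called at 2-fold, 427, was 259 with a pseudocount of 10, 703 with all genes with a mean above 0 and 162 with a mean of at least 100, where fewer genes were tested. Under quantile normalization 61.4% of the calls at 2-fold were higher, against 76.1%, the change in the *Cish* to *Socs3* gap was -0.70 and that in the *Cish* to *Socs2* gap was -0.14. The cause was not tested. Deviations of libraries with the same replicate number correlated at -0.05, 0.04 and -0.08, so that no shared deviation was seen. Whether libraries with the same number were prepared together is not given in the sources used here. With the replicate block 4 members were called higher and 1 lower, 5727 genes were called in place of 6056, and *Stat5b* was the named gene whose call was lost (0.10). Planned analyses with edgeR and DESeq2 were not run, since read numbers were only inferred. No search for outlying libraries was made in groups of 3.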
